A study of Homo sapiens with 204 samples.

Results

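The genes described here encode 46 factors that build the small (40S) ribosomal subunit, followed through knockdowns of ribosomal proteins in A549, a human lung adenocarcinoma cell line. Members were taken by gene symbol from the 2 deposited count tables, and all 46 had 1 row in each, of 41379 gene identifiers in RNA-seq and 19217 in Ribo-seq. Knockdown cells were transfected for 24 h with 40 nM siRNA against 1 of 75 ribosomal proteins, 44 of the large and 31 of the small subunit. Control cells received non-targeting siRNA at the same dose and for the same time. All libraries come from this single line, and the p-values therefore describe variation between its libraries, which may be technical. Every lysate was made after a short cycloheximide treatment, which holds ribosomes on mRNA, and was divided between RNA-seq (transcript reads) and Ribo-seq (ribosome footprints on coding sequence).

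Each assay had 102 libraries: 48 from large-subunit knockdowns, 43 from small-subunit knockdowns and 11 from controls. In a replicated set with numbered titles, 16 targets had 2 libraries each and there were 6 controls. A single-library set with unnumbered titles held the other 59 targets and 5 controls. In the order of the deposited columns the libraries fall into 3 runs, which do not match these sets exactly. The 5 controls of the single-library set are all in the middle run, while some of its targets are in the last run. Library totals ran from 18796932 to 63569574 counts in RNA-seq and from 7771312 to 57215307 in Ribo-seq. The targeted mRNA lay below every control in all 91 knockdown libraries, at a median of 3.98% of the control level (range 1.55% to 15.4% over 75 targets). KRT8, KRT18, ALDH1A1, AKR1C1 and AKR1B10, markers of A549 and epithelial cells, were present in every RNA-seq library, while the epithelial marker EPCAM was near its floor, at 0.246 to 3.28 CPM (counts scaled to the library total). CD3E was at 0 in all 102 libraries and PTPRC, PECAM1, CDH5, PDGFRB and COL1A2 did not exceed 0.503 CPM, whereas COL1A1, a collagen gene, reached 48.97 CPM. In bulk libraries of this kind, fewer cells of a type and less RNA per cell cannot be told apart. The RNA-seq library of control 20_2 stood apart. Of 45 factors with enough counts, 26 lay below and 17 above the range of the other 5 controls of its set, with a median log2 ratio to their mean of -0.78. In the Ribo-seq library of that lysate 3 of 46 lay below and 2 above, with a median of -0.07.

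Small subunits are assembled in the nucleolus around the rRNA precursor. The UTP-A complex binds the nascent precursor first, followed by the UTP-B complex and the U3 snoRNP, a particle of U3 RNA and proteins that guides folding and cleavage; together with the MPP10 complex and many single factors they form the small-subunit processome. Box C/D and box H/ACA snoRNPs methylate and pseudouridylate the rRNA, dedicated enzymes place further marks on 18S rRNA, and late factors escort the particle to the cytoplasm, where the endonuclease NOB1 makes the mature end of 18S rRNA. The list holds 6 UTP-A, 6 UTP-B and 4 MPP10 proteins, 6 snoRNP proteins, 13 other processome factors, 3 modification enzymes of 18S rRNA and 8 late and cytoplasmic factors.

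A sequence feature that the choice of members did not use was the hexamer CACGTG, the canonical E-box bound by MYC-type factors and identical on both strands. RefSeq promoters on GRCh38.p14, from 250 bases before to 50 after the start, were matched to 40 of the 46 members. Of these, 18 (45%) held the hexamer, against 12.6% of 10960 genes tested in RNA-seq and 8.77% of all 27305 genes with a promoter. In another list of 27 factors of 40S assembly, 8 of 20 promoters held it (40%), and in a list of 14 RNA polymerase I genes 1 of 13 did (7.69%). For 17 of the 18 members a copy began within 50 bases of the start. The windows below belong to members with called changes, read in the direction of transcription, with the hexamer in capitals.

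FBL: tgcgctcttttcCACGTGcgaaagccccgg
PNO1: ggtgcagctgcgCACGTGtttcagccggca
NOP10: gaaattgacgaaCACGTGacgcggtcgggc
UTP18: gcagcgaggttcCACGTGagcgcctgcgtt
IMP4: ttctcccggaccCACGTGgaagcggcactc
RRP9: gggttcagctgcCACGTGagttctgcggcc

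The FBL window is chr19:39846356-39846385 on the minus strand, with the hexamer beginning at position 7 of the RefSeq transcript. That of PNO1 is chr2:68157885-68157914 on the plus strand (position 10), and that of UTP18 is chr17:51260538-51260567 on the plus strand (position 5). IMP4 is shown at chr2:130342900-130342929 on the plus strand (position 16). For NOP10, chr15:34343130-34343159 on the minus strand, the hexamer began at -11, and for RRP9, chr3:51941892-51941921 on the minus strand, at -5, both upstream of the start. Against control in RNA-seq, described next, 0 of 17 tested members with the hexamer rose and 4 fell (median log2 fold change -0.01). Of 22 without it, 2 rose and 3 fell (median -0.11). Over all genes tested 13.4% rose and 17.2% fell. Members without a matched promoter, NOLC1 and NOL10 among them, are left out of this split. In large- against small-subunit Ribo-seq, 5 of 18 with the hexamer were higher and 1 lower (backgrounds 10.9% and 11.2%). Without it, 2 of 22 were higher and 1 lower. A match describes the letters and not a bound site.

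The first comparison set all 91 knockdown libraries against the 11 controls, with edgeR's quasi-likelihood test over all genes and Benjamini-Hochberg adjustment at 0.05. In RNA-seq 4 of 45 tested members rose (background 13.4% of 15526 genes) and 7 fell (background 17.2%). In Ribo-seq 7 of 46 rose (background 13.2% of 12793 genes) and 9 fell (background 13.5%). These shares lie near the background, and the median member moved by -0.02 in RNA-seq and -0.05 in Ribo-seq on the log2 scale, against -0.03 and 0.00 (-0.003611) over all genes tested. The summed level of the 44 RNA-seq members other than NOLC1 ran from 2553 to 3808 CPM (median 3013) in knockdowns and from 3035 to 3345 CPM (median 3138) in controls. The summed levels of the groups overlapped, and single factors were called in both directions in both assays.

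**Figure D1:**
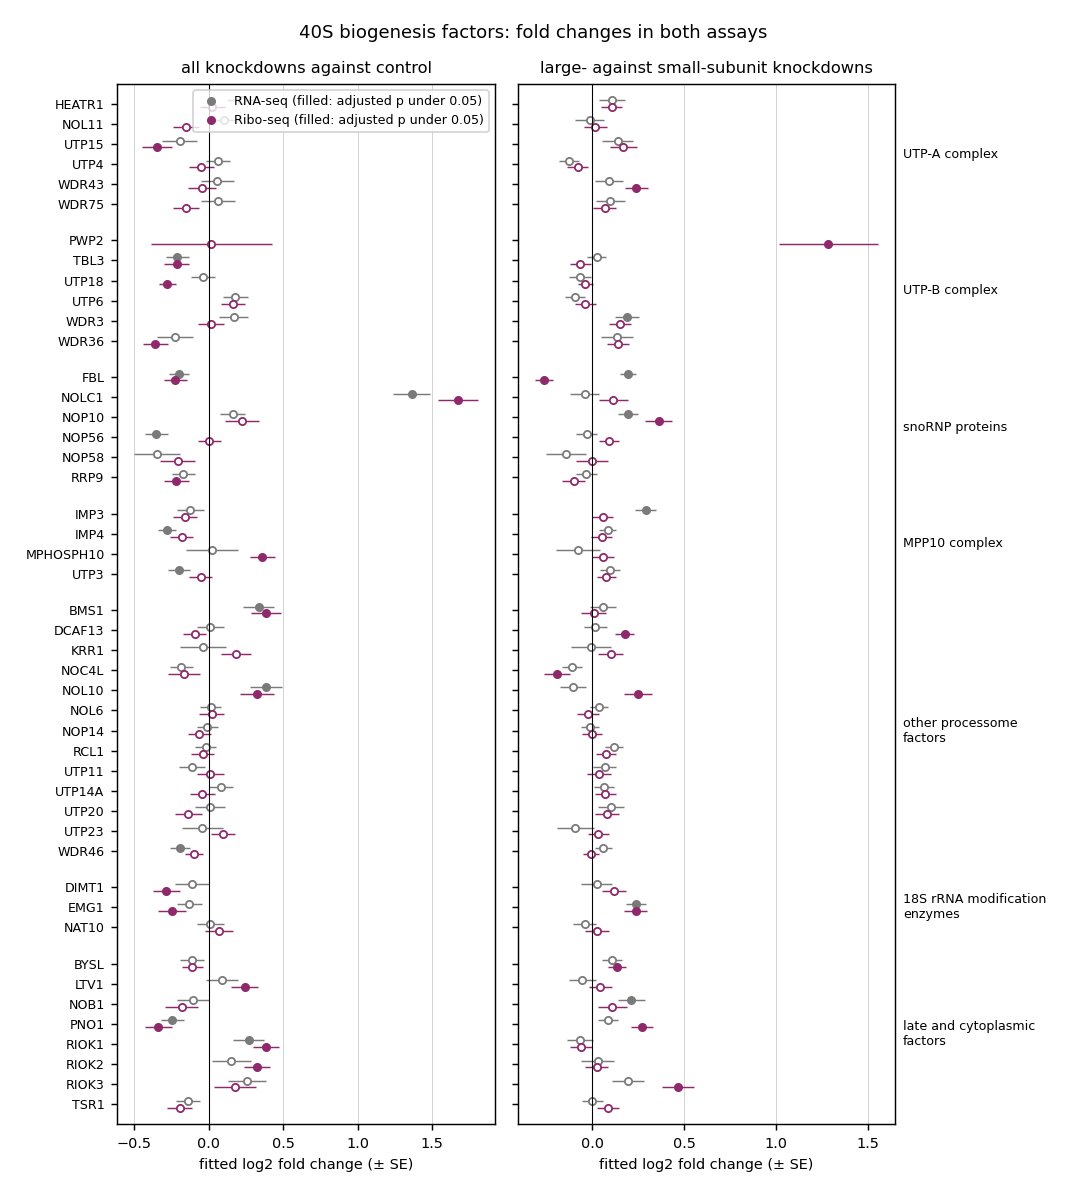
Fitted log2 fold change (x axis, bars ± SE) of each factor, by role, in RNA-seq (grey) and Ribo-seq (purple); filled points passed an adjusted p of 0.05. Left: all knockdowns against control, where NOLC1 stands at 1.36 and 1.67 and the other factors lie between -0.36 and 0.39. Right: large- against small-subunit knockdowns, where FBL lies on opposite sides of 0 in the 2 assays; PWP2 rests on few counts.

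NOLC1, the nucleolar phosphoprotein that chaperones snoRNPs and also contacts RNA polymerase I, changed far more than any other factor. Its RNA ran from 61.1 to 312 CPM (median 175.6) in knockdowns, against 57.1 to 80.2 CPM (median 68.7) in controls. Footprints ran from 117 to 578 CPM (median 322) in knockdowns, against 78.2 to 116 CPM (median 106.7) in controls. The groups did not overlap in Ribo-seq, where all 91 knockdown libraries were above every control; in RNA-seq 90 were, the exception being the RPL26 knockdown at 61.1 CPM. The fitted log2 fold change was 1.36 ± 0.125 (SE) in RNA-seq, a 2.57-fold rise (edgeR adjusted p = 5.06e-16). In Ribo-seq it was 1.67 ± 0.13, a 3.19-fold rise (edgeR adjusted p = 6.54e-20). Both calls held in all 21 alternative fits, with log2 values from 1.31 to 1.45 in RNA-seq and from 1.62 to 1.73 in Ribo-seq. Among the 16 replicated targets NOLC1 rose in 15 in RNA-seq and 16 in Ribo-seq. RPS12 gave the largest values, 312 and 297 CPM of RNA in its 2 libraries, and RPS15 the smallest, 84.5 and 83.4 CPM. The RPS15 log2 fold change of NOLC1 was 0.20 ± 0.08 in RNA-seq (adjusted p = 0.062) and 0.33 ± 0.10 in Ribo-seq (adjusted p = 0.0151), by edgeR's test. Between large- and small-subunit knockdowns NOLC1 differed by -0.04 ± 0.08 in RNA-seq and 0.11 ± 0.08 in Ribo-seq, not past the threshold (edgeR adjusted p = 0.711 and 0.319).

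**Figure D2:**
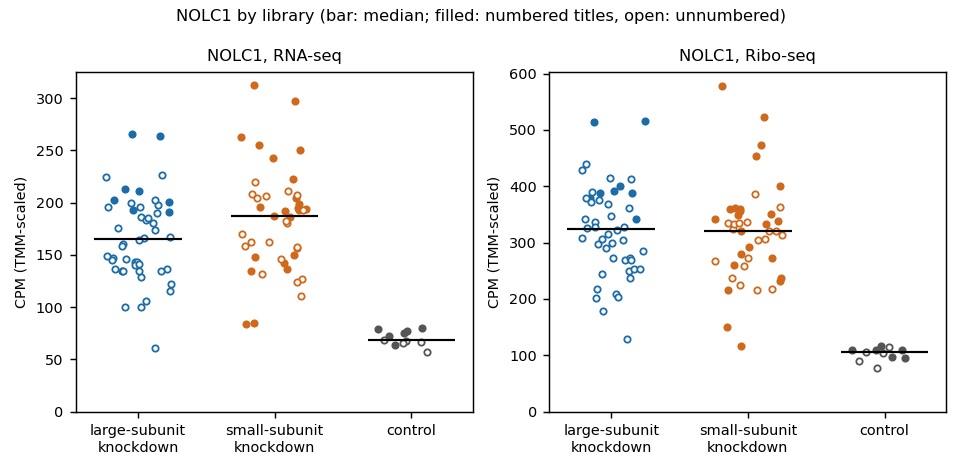
NOLC1 level in each library (y axis, TMM-scaled CPM from 0) in RNA-seq and Ribo-seq for large-subunit knockdowns, small-subunit knockdowns and controls; bars are medians, filled points the replicated set and open points the single-library set. The knockdown medians, 175.6 CPM for RNA and 322 CPM for footprints, stand above the control ranges, with the RPL26 and RPS15 libraries lowest.

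Among the other snoRNP proteins, NOP56, FBL and RRP9 were called lower. NOP56, a core protein of box C/D snoRNPs, ran from 95.2 to 243 CPM of RNA (median 161.7) in knockdowns, against 198 to 250.4 CPM (median 211) in controls, and 76 of 91 knockdown libraries lay below every control. It fell by 0.35 ± 0.08 on the log2 scale (edgeR adjusted p = 2.99e-04). Its footprints, 128 to 310.0 CPM (median 198.6) in knockdowns, overlapped 182 to 239 CPM (median 206) in controls, with a log2 fold change of 0.00 ± 0.08 (0.004309). Its partner NOP58 had a similar RNA estimate with a wide error, -0.35 ± 0.15 (adjusted p = 0.071). FBL, the methyltransferase of the same particles, ran from 236 to 472 CPM of RNA (median 324) in knockdowns, against 309 to 681 CPM (median 337) in controls, and fell by 0.20 ± 0.07. This call was lost without control 20_2, the control at 681 CPM, where the value was -0.10 (edgeR adjusted p = 0.238), and without control 20_1 (-0.16, adjusted p = 0.059). FBL footprints fell by 0.22 ± 0.08 (adjusted p = 0.0202), and by 0.22 (adjusted p = 0.0292) without control 20_2; the values without control 11_1 and without control 11_2 were -0.20 and -0.20 and missed the threshold (edgeR adjusted p = 0.0565 and 0.0502). RRP9, which binds U3 RNA, fell by 0.22 ± 0.09 in Ribo-seq, a call lost on leaving out any one of 7 controls (11_1, 11_2, 20_1, 20_2, 1, 5 and 7), with values of -0.22 to -0.17.

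Within UTP-A, UTP15 footprints were 31.3 to 132.6 CPM (median 69.7) in knockdowns and 53.6 to 110.2 CPM (median 82.5) in controls, overlapping, and fell by 0.35 ± 0.10 (edgeR adjusted p = 0.00677). The other 5 members were not called in either assay. UTP-B had 3 falls in Ribo-seq. WDR36 footprints were 70.3 to 219 CPM (median 144) in knockdowns and 130 to 211 CPM (median 167) in controls, a fall of 0.36 ± 0.08 (edgeR adjusted p = 6.31e-04). UTP18 fell by 0.28 ± 0.06, with 52 of 91 knockdown libraries below every control. TBL3 fell in both assays, by 0.21 ± 0.07 in RNA-seq and 0.22 ± 0.08 in Ribo-seq; without control 20_2 the RNA-seq value was -0.11 and neither passed (edgeR adjusted p = 0.271 and 0.0621). The TBL3 call was also lost without control 3 or 20_1 in RNA-seq (-0.19 in both) and without control 11_1, 11_2, 20_1, 1 or 3 in Ribo-seq (-0.22 to -0.18).

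In the MPP10 complex, which joins the processome after U3, the members moved in different directions. IMP4 RNA ran from 53.5 to 114.8 CPM (median 82.6) in knockdowns and from 89.6 to 143 CPM (median 99.8) in controls, with 66 of 91 knockdown libraries below every control. It fell by 0.28 ± 0.06 (edgeR adjusted p = 2.23e-04), a call that held in all 21 alternatives. UTP3 RNA fell by 0.20 ± 0.07, but its value was 0.00 (0.001045) in the single-library set alone (edgeR adjusted p = 0.996), and the call was lost without control 11_1, 11_2, 20_1, 21_1 or 21_2 (-0.18 to -0.17). MPHOSPH10, the scaffold of the complex, had footprints of 52.1 to 139 CPM (median 98.98) in knockdowns, against 66.3 to 91.6 CPM (median 77.7) in controls. These rose by 0.36 ± 0.08 (edgeR adjusted p = 6.34e-04), while its RNA gave 0.02 ± 0.18, with controls spread from 2.197 CPM in control 20_2 to 36.1 CPM.

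Other processome factors held 2 that rose in both assays. BMS1, the GTPase of the processome, ran from 21.6 to 122.6 CPM of RNA (median 76.7) in knockdowns and from 38.7 to 73.9 CPM (median 65.9) in controls, and rose by 0.34 ± 0.10 in RNA-seq and 0.39 ± 0.10 in Ribo-seq (edgeR adjusted p = 0.00903 and 0.00203). NOL10, the human counterpart of yeast Enp2, ran from 22.3 to 114.4 CPM of RNA (median 77.7) in knockdowns and from 23.7 to 73.6 CPM (median 64.9) in controls. It rose by 0.39 ± 0.11 in RNA-seq and 0.32 ± 0.11 in Ribo-seq (edgeR adjusted p = 0.00311 and 0.0236), and 63 of 91 knockdown libraries had more NOL10 RNA than any control. Without control 11_1 the NOL10 footprint value was 0.29 and missed the threshold (edgeR adjusted p = 0.0568). WDR46, a scaffold protein, fell in RNA-seq by 0.19 ± 0.07, or by 0.11 and not past the threshold without control 20_2 (edgeR adjusted p = 0.217), and by 0.17 and not past it without control 3 (edgeR adjusted p = 0.0561). The remaining 10 factors of this group were not called in either assay.

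Among the enzymes that modify 18S rRNA, DIMT1, the adenosine dimethyltransferase, had footprints of 36.02 to 172 CPM (median 77.5) in knockdowns and 67.9 to 117.8 CPM (median 96.96) in controls and fell by 0.28 ± 0.09 (edgeR adjusted p = 0.012). EMG1, a pseudouridine methyltransferase, fell by 0.25 ± 0.09 in Ribo-seq, a call lost on leaving out any one of 7 controls (11_1, 11_2, 20_2, 5, 7, 21_1 and 21_2), with values of -0.25 to -0.21. The acetyltransferase NAT10 was not called in either assay. Of the late factors, the kinases RIOK1 and RIOK2 rose in Ribo-seq by 0.38 ± 0.09 and 0.32 ± 0.09 (edgeR adjusted p = 3.28e-04 and 0.0036), and RIOK1 footprints of 15.2 to 34.2 CPM (median 24.5) in knockdowns were above every control (13.7 to 21.8 CPM, median 18.7) in 65 of 91 libraries. RIOK1 RNA rose by 0.27 ± 0.10, or by 0.20 and not past the threshold without control 20_2 (edgeR adjusted p = 0.132); control 11_1, 20_1, 3, 5, 7 or 9 left out also ended that call, at 0.24 to 0.27. RIOK3, a kinase of the same family, had a footprint value of 0.18 ± 0.14 and was not called (edgeR adjusted p = 0.376). LTV1, an assembly factor released by phosphorylation, rose in Ribo-seq by 0.24 ± 0.09, a call lost on leaving out any one of 8 controls (11_1, 11_2, 20_1, 20_2, 1, 3, 9 and 21_2), with values of 0.21 to 0.24. PNO1, the partner of NOB1, had footprints of 75.3 to 251 CPM (median 152.5) in knockdowns and 147.7 to 229.7 CPM (median 190.0) in controls; PNO1 fell by 0.24 ± 0.08 in RNA-seq and 0.34 ± 0.09 in Ribo-seq (edgeR adjusted p = 0.00902 and 0.00211). NOB1, BYSL and TSR1 were not called.

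Within the single-library set alone, 2 members rose (background 7.66%) and 2 fell (background 5.8%) in RNA-seq, and in Ribo-seq NOLC1 alone rose (background 4.03%) and 0 fell (background 1.92%). In the replicated set alone, 2 rose (background 6.4%) and 1 fell (background 5.71%) in RNA-seq, and 6 rose (background 9.65%) and 5 fell (background 8.99%) in Ribo-seq. Without control 20_2, 3 rose (background 13.9%) and 6 fell (background 15.7%) in RNA-seq, and 6 rose and 6 fell in Ribo-seq (background 12.3% in each direction). The falls of PNO1 and UTP15 depended on the fit. PNO1 RNA was -0.25 in the single-library set and -0.22 in the replicated set, past the threshold in neither (edgeR adjusted p = 0.116 and 0.147), and PNO1 footprints were -0.25 without the title set term and -0.22 in the single-library set (edgeR adjusted p = 0.0672 and 0.389). The replicate number was also fitted as a block, which keeps only the replicated targets and controls 11 and 20. In that fit PNO1 RNA was -0.07, PNO1 footprints -0.30, UTP15 footprints -0.07 and DIMT1 footprints -0.13, none past the threshold (edgeR adjusted p = 0.709, 0.0899, 0.774 and 0.596).

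Translation efficiency, the change of footprints beyond that of RNA, was fitted with both assays in a single model whose interaction term gives the difference between their group effects. For all knockdowns against control, 0 of 45 members rose (background 0.329% of 12480 genes) and 0 fell (background 0.024%) by edgeR. DESeq2 also called 0 (backgrounds 0.505% higher and 0.024% lower). An unadjusted edgeR p under 0.05 was found for 2 of the 45 members, against 642 of all 12480 genes. With each lysate as its own block (limma on per-lysate log2 ratios), 2 members were higher (background 1.55%) and 3 lower (background 2.37%), and without control 20_2 there were 2 higher (background 1.36%) and 0 lower (background 1.32%). NOP56 was higher by 0.33 ± 0.06 (limma adjusted p = 2.21e-05) and NOLC1 by 0.28 ± 0.05 (limma adjusted p = 1.02e-04), and without control 20_2 by 0.32 and 0.31 (limma adjusted p = 1.25e-04 and 3.64e-05). In NOP56 the per-lysate log2 ratio of footprints to RNA ran from -0.12 to 0.70 (median 0.29) in knockdowns and from -0.31 to 0.07 (median -0.07) in controls. The 3 lower members were NOL11 (-0.33 ± 0.09), UTP18 (-0.28 ± 0.08) and HEATR1 (-0.25 ± 0.07), with limma adjusted p of 0.0256, 0.0354 and 0.0381. All 3 calls were lost without control 20_2, with values of -0.23, -0.21 and -0.16 (limma adjusted p = 0.14, 0.139 and 0.207). In the edgeR fit the median was -0.20 over 6 UTP-A members and -0.15 over 5 UTP-B members, with all values negative and none past the threshold. Without control 20_2 these medians were -0.17 and -0.11, and 4 of the 5 UTP-B values were negative.

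The second comparison asked whether the subunit of the depleted protein mattered, with large- against small-subunit knockdowns. In RNA-seq 6 of 45 members were higher in large-subunit knockdowns (background 15.2%) and 0 were lower (background 16.4%) by edgeR. DESeq2 called 7 higher and 0 lower (background 16.4% in each direction). An unadjusted edgeR p under 0.05 was found for 10 of the 45 members, against 6461 of all 15526 genes tested. In Ribo-seq 9 of 46 were higher (background 10.9%) and 2 were lower (background 11.2%). In translation efficiency 1 of 45 was higher (background 1.07%) and 1 lower (background 2.52%). In the replicated set, the column numbers of the 4 large-subunit targets lie together, between lower and higher numbers of small-subunit targets. Subunit and number therefore cannot be told apart there, and any effect of the number was not tested. Within this set 5 were higher (background 6.99%) and 0 lower (background 7.38%) in RNA-seq. Within the single-library set 4 were higher (background 13.4%) and 4 lower (background 14.4%), and without control 20_2 there were 8 higher (background 16.7%) and 0 lower (background 16.6%).

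FBL showed opposite changes in its RNA and its footprints. Its RNA ran from 266 to 426 CPM (median 339) in large-subunit knockdowns, from 236 to 472 CPM (median 306) in small-subunit knockdowns and from 309 to 681 CPM (median 337) in controls. Footprints ran from 374 to 783 CPM (median 486) in large-subunit knockdowns, from 491 to 983 CPM (median 656) in small-subunit knockdowns and from 564 to 913 CPM (median 636) in controls. So RNA was higher by 0.19 ± 0.04 and footprints lower by 0.26 ± 0.05 (log2 value -0.26) in large- than in small-subunit knockdowns, with edgeR adjusted p of 3.24e-04 and 1.57e-05. In the replicated set alone both kept their sign at 0.14 and -0.18 and missed the threshold (edgeR adjusted p = 0.405 and 0.243). Over 10 alternatives the RNA call was lost in 3, with values of 0.08 to 0.20 over all 10. The footprint call was lost in 2, with values of -0.35 to -0.18 over all 10. The per-lysate log2 ratio of footprints to RNA was 0.55 ± 0.22 in 48 large-subunit libraries, 1.00 ± 0.25 in 43 small-subunit libraries and 0.85 ± 0.28 in 11 controls (mean ± SD), with overlap between all 3. The interaction was -0.46 ± 0.06 (edgeR adjusted p = 2.15e-09), a 0.726-fold ratio. It was -0.52 (edgeR adjusted p = 5.97e-10) in the single-library set and -0.33 (edgeR adjusted p = 0.717) in the replicated set.

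NOL10 moved the other way, with RNA of 22.3 to 112.3 CPM (median 77.4) in large- and 40.99 to 114.4 CPM (median 77.7) in small-subunit knockdowns. NOL10 footprints ran from 36.3 to 242 CPM (median 140.1) in large-subunit knockdowns, from 65.3 to 159 CPM (median 118.0) in small-subunit knockdowns and from 68.6 to 122.6 CPM (median 104.5) in controls. Large-subunit knockdowns therefore carried more NOL10 footprints at like RNA levels: the Ribo-seq difference was 0.25 ± 0.07 (edgeR adjusted p = 0.00972) and the interaction 0.35 ± 0.10 (edgeR adjusted p = 0.0334). The interaction did not pass in the single-library set (0.39, edgeR adjusted p = 0.0727), in the replicated set (0.23, adjusted p = 1) or with the 2 libraries of a target summed (0.36, adjusted p = 0.0624); on per-lysate ratios it was 0.34 ± 0.07 (limma adjusted p = 6.03e-05). That blocked fit called 7 members higher (background 7.56%) and 2 lower (background 8.42%), with the same counts without control 20_2 (backgrounds 7.77% and 9.13%). Beside NOL10 and FBL it held PNO1 (0.18), RIOK3 (0.25), NOP10 (0.18), NOLC1 (0.15), NOP56 (0.13) and TSR1 (0.09) on the higher side and IMP3 (-0.22) on the lower side.

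**Figure D3:**
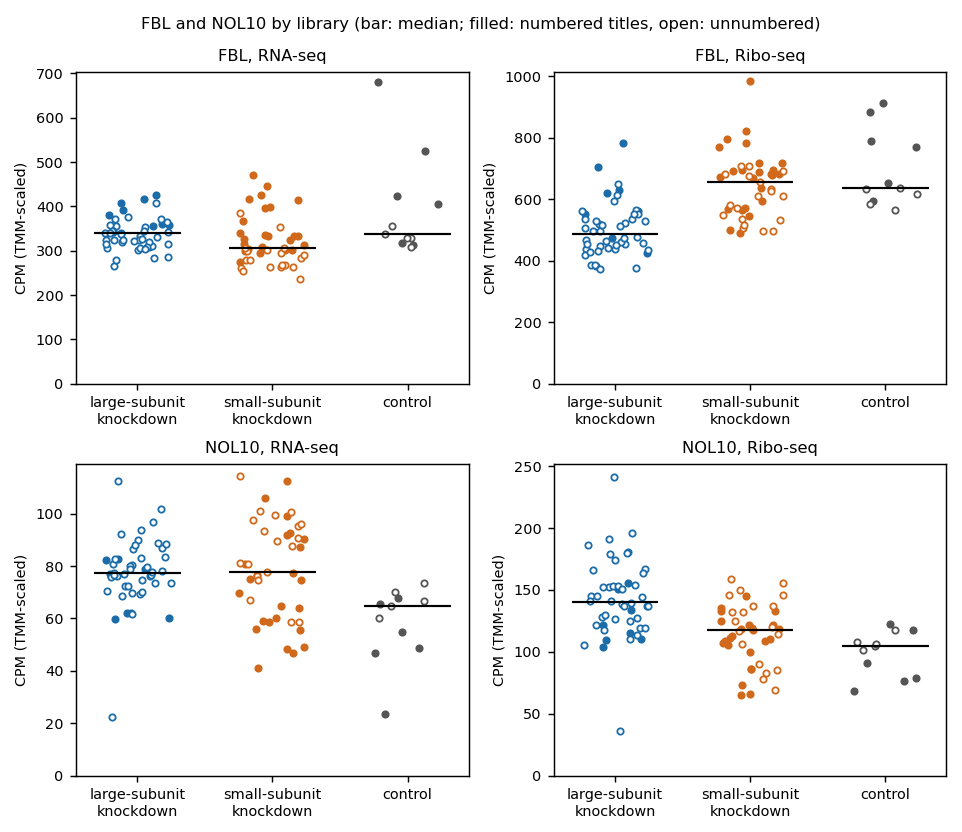
FBL (top) and NOL10 (bottom) in each library (y axes, TMM-scaled CPM from 0) for large-subunit knockdowns, small-subunit knockdowns and controls, in RNA-seq (left) and Ribo-seq (right); bars are medians, filled points the replicated set and open points the single-library set. FBL footprints have medians of 486 CPM in large- and 656 CPM in small-subunit knockdowns, and the RPL7 knockdown is the lowest NOL10 point in both assays.

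NOP10, RIOK3 and PNO1 also differed between the subunits. NOP10, a small protein of box H/ACA particles, had footprints of 206 to 448 CPM (median 338) in large- and 38.8 to 342 CPM (median 281) in small-subunit knockdowns, a difference of 0.36 ± 0.07 (edgeR adjusted p = 1.33e-04), and its RNA differed by 0.19 ± 0.06. RIOK3, a kinase found on late particles, had footprints of 25.2 to 134.6 CPM (median 81.8) in large- and 24.4 to 93.9 CPM (median 53.0) in small-subunit knockdowns. Its difference of 0.46 ± 0.09 (edgeR adjusted p = 2.79e-05) held in all 10 alternatives. PNO1 footprints were 119 to 251 CPM (median 171) in large- and 75.3 to 197 CPM (median 130.7) in small-subunit knockdowns, a difference of 0.27 ± 0.06 (edgeR adjusted p = 3.22e-04), and 0.17 in the replicated set alone (edgeR adjusted p = 0.235).

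In the MPP10 complex IMP3 RNA was 58.8 to 121 CPM (median 85.0) in large- and 34.9 to 99.2 CPM (median 71.9) in small-subunit knockdowns, a difference of 0.29 ± 0.06 (edgeR adjusted p = 3.04e-05), with no call in Ribo-seq (0.06 ± 0.06). EMG1 was higher in large-subunit knockdowns in both assays, by 0.24 ± 0.05 in RNA-seq and 0.23 ± 0.06 in Ribo-seq (edgeR adjusted p = 4.24e-04 and 0.00414), though by 0.14 and 0.16 and not past the threshold in the single-library set alone (edgeR adjusted p = 0.118 and 0.198). NOB1 RNA was 60.6 to 151 CPM (median 95.8) in large- and 25.2 to 140.1 CPM (median 98.2) in small-subunit knockdowns, a fitted difference of 0.21 ± 0.07 (edgeR adjusted p = 0.0208) that was 0.09 without the title set term (edgeR adjusted p = 0.323). WDR3 of UTP-B was the sixth called in RNA-seq, at 0.19 ± 0.07 (edgeR adjusted p = 0.0194). Its value was 0.43 in the replicated set, 0.10 in the single-library set and 0.15 with the libraries of a target summed, and the last 2 missed the threshold (edgeR adjusted p = 0.299 and 0.0975). WDR43 and DCAF13 had higher footprints by 0.24 and 0.18, with 0.16 for WDR43 in the single-library set and 0.15 for DCAF13 in the replicated set, both past the threshold no longer (edgeR adjusted p = 0.17 and 0.295). BYSL had higher footprints by 0.13, a call lost in 6 of 10 alternatives, with values of 0.08 to 0.17 over all 10. NOC4L, the partner of NOP14, had lower footprints, by 0.19 ± 0.07 (log2 value -0.19, edgeR adjusted p = 0.0442). Its call was lost in 3 of 10 alternatives, and its value ran from -0.44 without the title set term to -0.09 in the replicated set. PWP2 is listed at 1.28 ± 0.27, but its counts were 0 to 258 in Ribo-seq knockdown libraries and 0 to 8 in RNA-seq knockdown libraries, where it missed the filter on low counts. GRCh38 carries a second, near-identical copy of this gene on chromosome 21, and how reads shared by copies were counted is not given in the sources used here, so the PWP2 value is uncertain.

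Each of the 16 replicated targets was then set against the 6 controls of its set. Controls 11 and 20 share the first run of columns with 15 of these targets. The other controls of the set, and the RPS16 libraries, stand in later runs. Members called in at least 8 targets numbered 3 higher (background 7.05%) and 1 lower (background 5.57%) of 45 in RNA-seq. The higher ones were NOLC1 in 15 targets, UTP6, a UTP-B scaffold, in 9 and BMS1 in 8, and the lower one was NOP56 in 10. In Ribo-seq there were 5 higher (background 9.72%) and 5 lower (background 9.4%) of 46. The higher ones were NOLC1 in 16 targets, MPHOSPH10 in 12, BMS1 and NOP10 in 10 each and RIOK2 in 8. PNO1 was lower in 11 targets, EMG1 in 10, WDR36 in 9, and NOB1 and UTP18 in 8 each. Without control 20_2 the RNA-seq count was 5 higher (background 12%) and 5 lower (background 11.2%), with NOL10 and UTP4 added to the higher members and IMP4, NOP58, PNO1 and UTP3 to the lower ones. In Ribo-seq RIOK2 then dropped to 7 targets, which left 4 higher (background 9.54%) and 5 lower (background 9.64%). With the first run of columns alone (15 targets), 7 were higher (background 10.7%) and 8 lower (background 12.8%) in RNA-seq. In Ribo-seq 10 were then higher (background 14.1%) and 8 lower (background 15.4%). The fit on that run alone was chosen after seeing the data.

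Single targets differed in direction. RPS15 knockdown had 0 members higher (background 14.9%) and 20 of 45 lower (background 18.9%) in RNA-seq, and 1 higher (background 11.2%) and 23 of 46 lower (background 13.3%) in Ribo-seq. RPS7 and RPS15A knockdowns had 3 and 2 higher (backgrounds 10.6% and 8.15%) and 11 and 10 lower (backgrounds 12.7% and 9.65%) in Ribo-seq. In the other direction, RPL24 knockdown had 11 higher (background 12.1%) and 1 lower (background 13.7%) in RNA-seq, with 18 higher (background 15.7%) and 1 lower (background 16.2%) in Ribo-seq. RPS26 knockdown had 10 higher (background 8.1%) and 0 lower (background 8.71%) in RNA-seq, with 17 higher (background 12%) and 1 lower (background 13.4%) in Ribo-seq. RPS12 knockdown had 9 higher (background 11.7%) and 0 lower (background 13.9%) in RNA-seq, with 15 higher (background 16%) and 4 lower (background 16.8%) in Ribo-seq. Small-subunit targets therefore stood at both ends of this order. Without control 20_2 the RNA-seq counts and their backgrounds were larger. RPS15 then had 3 higher (background 27.5%) and 26 lower (background 29.7%). RPS15A, with 1 higher (background 9.46%) and 5 lower (background 8.5%) against all 6 controls, had 3 (background 22.4%) and 21 (background 23.8%). RPS7, with 1 higher (background 8.81%) and 3 lower (background 7.6%) against all 6, had 1 (background 20.9%) and 15 (background 20%). RPL24 had 16 higher (background 17.8%) and 1 lower (background 18.4%), RPS26 12 (background 11.8%) and 2 (background 11.6%), and RPS12 11 (background 15%) and 1 (background 15.7%).

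The RNA falls in RPS15 knockdown included factors that were also low in control 20_2. MPHOSPH10 RNA stood at 4.79 and 5.36 CPM in the 2 RPS15 libraries, against 2.197 CPM in control 20_2, 6.397 CPM in control 20_1 and 15.7 to 36.1 CPM in the other 4 controls. KRR1, a processome factor near the U3 site, stood at 12.2 and 17.2 CPM in RPS15 knockdown, against 8.44 CPM in control 20_2, 20.7 CPM in control 20_1 and 41.5 to 78.6 CPM in the other 4. Footprints of these genes lay within or near the control range: MPHOSPH10 had 90.3 and 100.3 CPM in RPS15 knockdown, against 66.3 to 91.6 CPM in the 6 controls, and KRR1 had 87.5 and 95.6 CPM against 78.0 to 129 CPM. WDR36 was low in both assays, at 12.2 and 13.3 CPM of RNA and 72.7 and 83.4 CPM of footprints in RPS15 knockdown, against 15.6 to 74.1 CPM and 130 to 211 CPM in the controls. Its Ribo-seq fold change was -1.07 ± 0.15 (edgeR adjusted p = 4e-06). The part of library 20_2's own profile in the RNA-seq values was not tested.

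**Figure D4:**
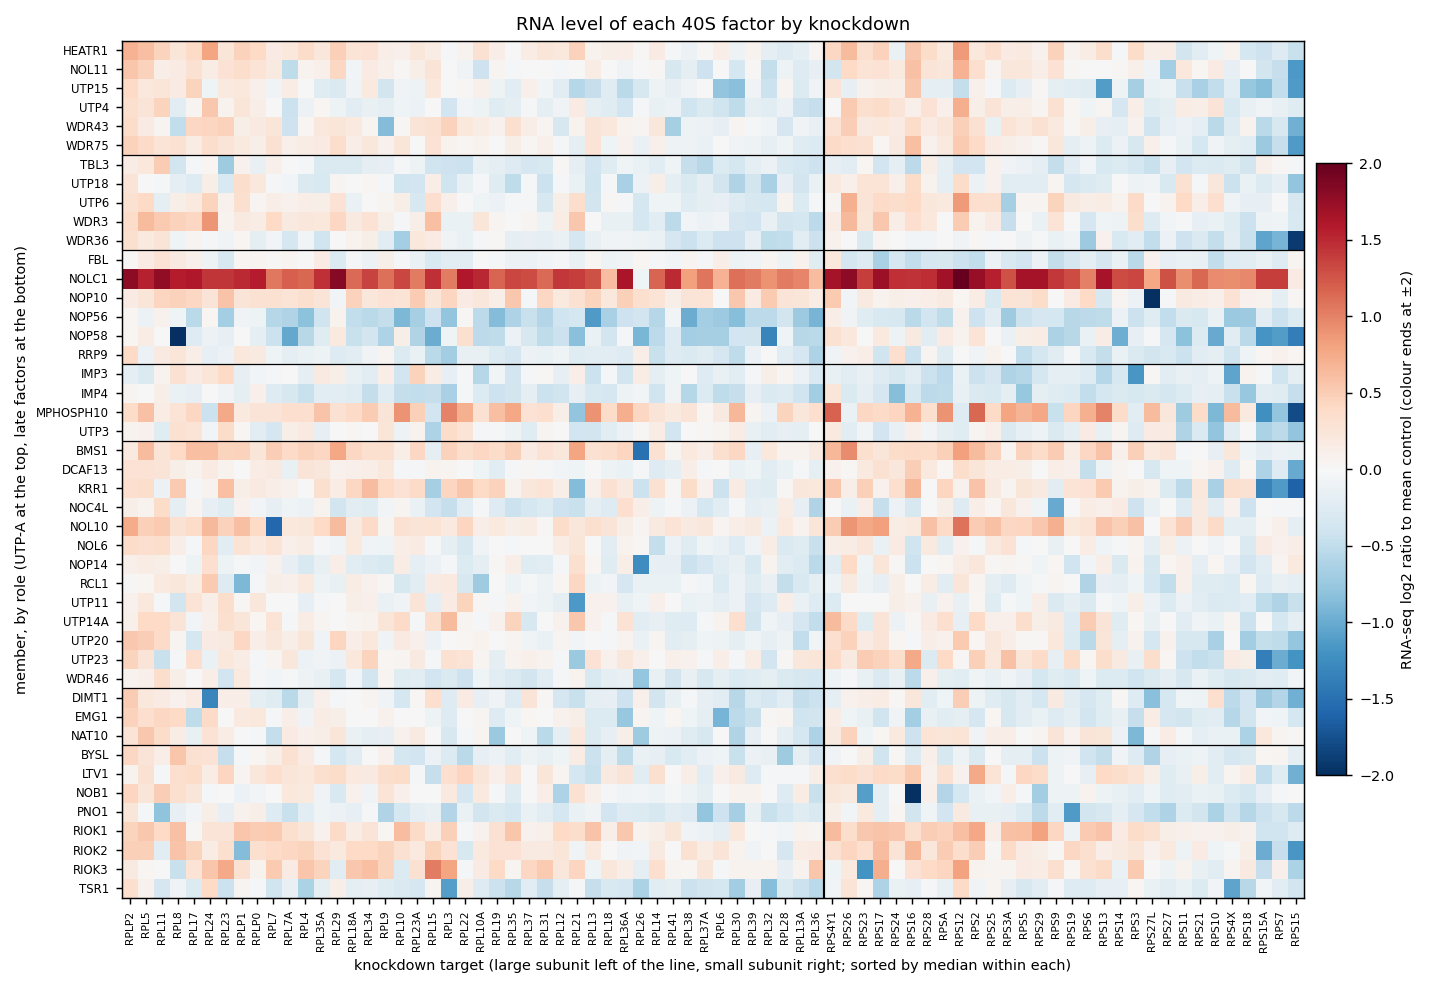
RNA-seq log2 ratio of each factor (rows, by role) to the mean control of the same set by knockdown (columns, large subunit left of the line, small subunit right, sorted by median); colours end at ±2. NOLC1 is a red row broken at RPL26 and RPS15, and isolated blue cells mark NOP58 in the RPL8, NOP10 in the RPS27L and NOB1 in the RPS16 knockdown.

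Across all 75 targets the median factor was summarised as the log2 ratio of CPM plus 0.5 to the mean control of the same set. In RNA-seq these medians ran from -0.26 to 0.32 in 44 large-subunit targets (median -0.02) and from -0.36 to 0.18 in 31 small-subunit targets (median -0.06), against -0.68 to 0.18 in the 11 single controls. In Ribo-seq they ran from -0.37 to 0.28 (median -0.04) for large and from -0.39 to 0.24 (median -0.10) for small targets, against -0.10 to 0.18 in controls. The ratio of footprints to RNA ran from -0.27 to 0.21 (median -0.02) for large and from -0.28 to 0.15 (median -0.04) for small targets, against -0.26 to 0.59 in controls. All 3 readouts overlapped between the subunits and with the controls.

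RNA medians were highest in the knockdowns of RPLP2 (0.32), RPL5 (0.24), RPL11 (0.20), RPS4Y1 (0.18) and RPS26 (0.17). RPL5 and RPL11 bind 5S rRNA together. In the 1 RNA-seq library of the RPLP2 knockdown 44 of 45 factors lay above the control mean. The median over all genes tested was -0.02 there, with quartiles of -0.21 and 0.16. Among the lowest RNA medians were those of RPS15 (-0.36), RPL36 (-0.26), RPS7 (-0.25, value -0.2450) and RPL13A (-0.23). In Ribo-seq the highest were RPL11 (0.28), RPS26 (0.24), RPL24 (0.23), RPLP0 (0.21) and RPS12 (0.19) and among the lowest were RPL6 (-0.37), RPS27 (-0.32), RPS18 (-0.30) and RPS15 (-0.30). The ratio of footprints to RNA was highest in RPL11 (0.21), RPS15 (0.15), RPL9 (0.11), RPL37A (0.11) and RPS15A (0.10) and lowest in RPS27 (-0.28), RPL7 (-0.27), RPL6 (-0.21), RPS16 (-0.15) and RPS24 (-0.15). RPL11 thus stood among the 5 highest in all 3 readouts, from 1 library per assay.

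**Figure D5:**
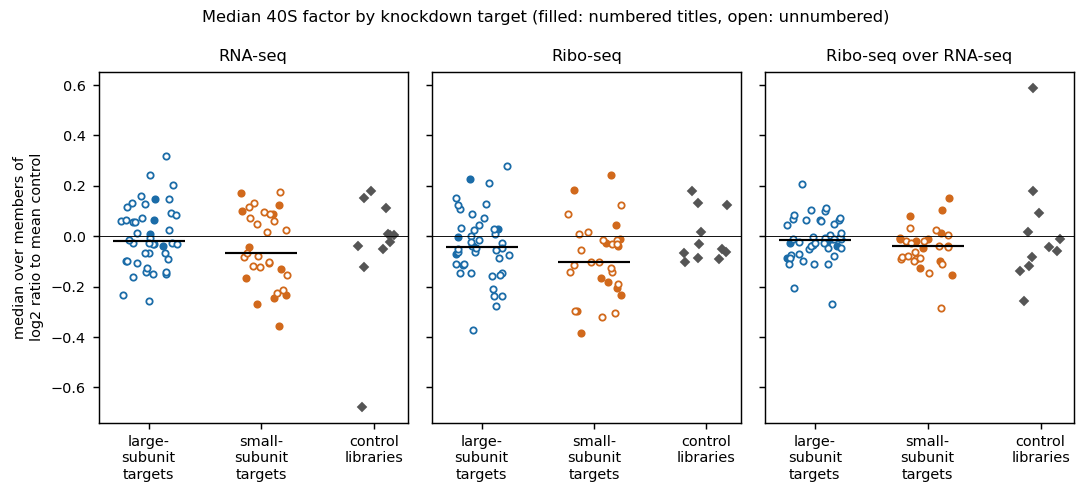
Median over the factors of the log2 ratio to the mean control (y axis) for each knockdown target and for single control libraries, in RNA-seq, Ribo-seq and their ratio; bars are medians over targets, filled points the replicated set. Targets of both subunits spread around 0, and control 20_2 is the single diamond at -0.68 in RNA-seq and 0.59 in the ratio.

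A few factors had 1 knockdown whose log2 ratio to the controls of its set lay below that of every other target in both assays, by at least 0.5; these were picked after their values were seen and get no test. NOB1 stood at 25.2 and 25.7 CPM of RNA in the 2 RPS16 knockdown libraries, against 43.0 to 151 CPM in all other knockdowns and 94.2 to 162 CPM in 6 controls, and its footprints at 22.6 and 23.5 CPM, against 86.2 to 119 CPM in the controls. The next lowest was the RPS23 knockdown, with a log2 ratio of -1.11 in RNA-seq where RPS16 had -2.21 (value -2.215). NOP10 stood at 19.8 CPM of RNA and 38.8 CPM of footprints in the RPS27L knockdown, 22.3% and 13.9% of the control mean. In the RPL8 knockdown NOP58 was at 12.03 CPM of RNA and 40.95 CPM of footprints, 22.3% and 15.7% of control. NOL10 was at 22.3 CPM of RNA and 36.3 CPM of footprints in the RPL7 knockdown (33.8% and 34.1%). The RPL26 knockdown, which also had the lowest NOLC1 RNA, had BMS1 at 21.6 CPM of RNA and 19.03 CPM of footprints (35.7% and 22.9%) and NOP14, a processome scaffold, at 23.9 and 29.3 CPM (42.4% and 32.3%). RIOK3 was at 12.5 and 24.4 CPM in the RPS23 knockdown (43.7% and 37.5%). Except for RPS16, each of these targets has 1 library per assay, and how a given siRNA might act on these transcripts was not tested.

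The width of the response differed between factors. Over 75 targets the SD of the RNA log2 ratio was largest for MPHOSPH10 (0.54), NOP58 (0.46) and KRR1 (0.43), and smallest for WDR46 (0.18), NOL6, the scaffold at the heart of the early particle (0.20), and FBL (0.20). In Ribo-seq WDR46 and UTP18 had the smallest SD (0.18 each). The MPHOSPH10 RNA ratio ran from -1.79 in the RPS15 to 1.19 (1.185) in the RPS4Y1 knockdown. The share of all genes called in no pooled comparison was not computed, so the count of such factors has no background here. In no pooled comparison were 16 factors called by edgeR: UTP4, UTP6, UTP11, UTP14A, UTP20, UTP23, WDR75, HEATR1, NOL6, NOL11, NOP14, RCL1, KRR1, NAT10, TSR1 and NOP58. Against control their RNA log2 fold changes ran from -0.35 for NOP58 to 0.23 for HEATR1, and their footprint values from -0.21 for NOP58 to 0.18 for KRR1. UTP6, though called in 9 single targets, had a pooled RNA value of 0.18 ± 0.08 (edgeR adjusted p = 0.0813).

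How alike the factors moved was described over the 59 targets of the single-library set, which share the same 5 controls. The median Pearson r between pairs of members was 0.227 in RNA-seq (990 pairs), 0.216 in Ribo-seq (1035 pairs) and 0.138 in their ratio (990 pairs), against -0.001, 0.001 and 0.007 over all pairs of genes tested. UTP-A was the most alike group of the list, with medians of 0.47, 0.41 and 0.45. The pairs with the highest r in RNA-seq were HEATR1 with UTP20 (0.73, or 0.65 without the 2 targets farthest from the median), NOL6 with TBL3 (0.72, or 0.76) and NOP14 with BMS1 (0.72, or 0.44 without RPL26 and RPL36). Footprint-to-RNA ratios of NOL10 and FBL ran against each other (r = -0.69, or -0.67). IMP3 and RIOK3 were the least alike, with mean r to the other members of 0.00 (-0.001624) and -0.01 in RNA-seq. Farthest from the other members of their own group across all knockdowns were NOLC1 and NOL10 in RNA-seq, with 1.56 and 0.40 between their log2 fold change and the median of the others, and NOLC1 and MPHOSPH10 in Ribo-seq, with 1.88 and 0.52.

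Across all knockdowns, the backgrounds over all genes were 13.4% higher and 17.2% lower in RNA-seq and 13.2% and 13.5% in Ribo-seq. Of 27 further 40S factors, 2 rose and 4 fell in RNA-seq (median log2 fold change -0.08) and 2 rose and 2 fell in Ribo-seq (median -0.02). Of 14 RNA polymerase I genes, 2 rose and 2 fell in RNA-seq (median -0.10) and 1 rose and 3 fell in Ribo-seq (median -0.11). Between large- and small-subunit knockdowns, 8 of the 27 further 40S factors were higher and 6 lower in RNA-seq (backgrounds 15.2% and 16.4%). In Ribo-seq 8 were higher and 2 lower (backgrounds 10.9% and 11.2%).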

How the data were processed

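RNA-seq and Ribo-seq read counts per Ensembl gene were deposited by the authors as 1 table per assay, not normalized and not pooled; the tables' labels give exons for RNA-seq and coding sequence for Ribo-seq. The submitters' processing notes name the tools STAR 2.6.1, cutadapt 1.8.1 and bcl2fastq 2.20.0.422, and the build GRCh38; counting program, strand setting and annotation: not given in the sources used here. Columns were matched to titles by name. In both assays 2 control columns (21_1 and 21_2) carry a number that matches no title exactly and were matched to the control group only, with their RNA-seq and Ribo-seq libraries paired by column name; the 2 RNA-seq columns of RPS15 carry another sample number than its titles and were matched by target and replicate. Among 71 pairs of libraries of 1 group the chi-square per degree of freedom was at least 3.47, so none was counted as a repeat.

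The 46 members, their roles, the other lists and the tests were chosen with earlier results of these data known. Tests kept genes that reached 1 CPM in 11 or more libraries (15526, 12793 and 12480 for RNA-seq, Ribo-seq and both), with edgeR 4.0.16 in R 4.3.3 (TMM, quasi-likelihood, title set as covariate, Benjamini-Hochberg over all genes, threshold 0.05); PWP2 missed the RNA-seq filter. Translation efficiency was the interaction of assay and group. Each lysate gave both assays, per the labels' protocols, and the deviations of its 2 libraries from their group had a median correlation of 0.117 over 43 lysates; per-lysate ratios were tested with limma 3.58.1 (prior count 2) as an alternative. CPM values are TMM-scaled. Per-target ratios use a pseudocount of 0.5 CPM and understate changes of low genes. DESeq2 1.42.0, other scaling, no filter, each title set, summed libraries and left-out controls were further alternatives. Members named with group values are the 4 largest called changes in each direction per comparison, those called in at least 8 of 16 targets, the 5 highest and 5 lowest targets, and others chosen after their values were seen. 1 target and 1 marker gene, though part of the fits and counts, are not reported here. Scripts were tested on simulated data. A count of 0 in the shallowest Ribo-seq library allows up to 0.386 CPM (3 counts), for counting error only.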

Additional observations from a re-analysis of the deposited data

Results flagged for a closer look

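In 118 checks of control groups of 5 or 6 libraries, over 30 called members in both assays, 9 held 1 library far from the rest; chance gives about 1 in 20. Control 20_2 accounted for 5, all in RNA-seq: BMS1 at 38.7 CPM (median of the others 70.5), IMP3 at 121.5 (75.1), IMP4 at 143 (99.8), UTP3 at 15.96 (28.4) and WDR3 at 21.9 (48.5). The others were NOLC1 RNA at 57.1 CPM in control 9 (67.1), RRP9 RNA at 51.1 CPM in control 3 (36.3), BMS1 footprints at 84.3 CPM in control 11_2 (97.3) and RIOK3 footprints at 85.1 CPM in control 7 (60.9).

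The effect of knockdown differed between large- and small-subunit targets by the test of that difference for 19 values (log2, large minus small). In RNA-seq these were WDR3 (0.19), IMP3 (0.29), EMG1 (0.24), NOB1 (0.21), FBL (0.19) and NOP10 (0.19). In Ribo-seq they were WDR43 (0.24), NOL10 (0.25), NOC4L (-0.19), DCAF13 (0.18), PWP2 (1.28, on few counts), EMG1 (0.23), PNO1 (0.27), BYSL (0.13), RIOK3 (0.46), FBL (-0.26) and NOP10 (0.36). In translation efficiency they were NOL10 (0.35) and FBL (-0.46).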

How the results depend on the processing

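Of 759 single values recomputed under the alternatives, 598 kept their direction and side of the threshold, 160 kept the direction but no longer passed, and 1 reversed: UTP3 RNA, all knockdowns against control, was 0.001 (0.001045) in the single-library set alone. The causes were not tested. For all knockdowns against control, 11 members were called in RNA-seq (backgrounds 13.4% higher and 17.2% lower). There were 6 without the filter on low counts (8% and 8.27%), 3 in the replicated set (6.4% and 5.71%) and 4 in the single-library set (7.66% and 5.8%). When each control was left out, 7 to 14 were called (7 without control 20_1), with backgrounds of 12% to 13.9% higher and 15.3% to 16.8% lower. In Ribo-seq 16 were called (13.2% and 13.5%), and 1 in the single-library set (4.03% and 1.92%). When each control was left out, 10 to 16 were called (10 without control 11_1), with backgrounds of 11.9% to 12.7% higher and 11.8% to 12.8% lower. In translation efficiency 0 were called (0.329% and 0.024%), 5 on per-lysate ratios (1.55% and 2.37%) and 2 on these without control 20_2 (1.36% and 1.32%). For large- against small-subunit knockdowns, 22 were called without the title set term in RNA-seq (main 6) and 22 in Ribo-seq (main 11). The backgrounds without that term were also larger, at 22.2% higher and 24.5% lower in RNA-seq (main 15.2% and 16.4%). In Ribo-seq they were 18.4% and 18.9% (main 10.9% and 11.2%). In translation efficiency (main 2, backgrounds 1.07% and 2.52%) the counts were 0 in the replicated set (0.16% and 0.625%) and 1 in the single-library set (0.497% and 1.73%). With libraries of a target summed the count was 1 (0.433% and 2.1%). On per-lysate ratios it was 9 with control 20_2 (7.56% and 8.42%) and without it (7.77% and 9.13%).

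Members called in at least 8 targets numbered 4 in RNA-seq and 10 in Ribo-seq. With 1 library per target (without replicate 1 or 2), fewer members and fewer of all genes were called in both assays. The lone library then takes the pooled spread, so counts are not given for that alternative. Other RNA-seq counts were 2 without the filter (backgrounds 3.04% higher and 1.37% lower), 10 without control 20_2 (12% and 11.2%) and 15 in the first run of columns alone (10.7% and 12.8%), with 18 in Ribo-seq (14.1% and 15.4%); that last alternative, a term for runs of columns and per-lysate ratios without control 20_2 were chosen after seeing the data. With the replicate number as a block (controls 11 and 20 only), 18 members were called in at least 8 targets for RNA (backgrounds 12.3% and 14.9%) and 21 for footprints (15.4% and 17%); the numbers do not pair libraries across targets (median correlation of deviations -0.0215 and 0.0261). In the pooled comparisons the replicate block also leaves out the whole single-library set. Against control it left 10 calls for RNA (backgrounds 6.83% higher and 8.8% lower) and 12 for footprints (7.65% and 7.26%). Between subunits it left 4 for RNA (7.08% and 7.18%) and 9 for footprints (8% and 7.82%). Subunit medians per target moved by less than the spread between targets under every alternative run. Footprints per codon were not run, since no protein lengths were used here.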
